A study of Mus musculus with 8 samples.

Results

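The core spliceosome components are 46 genes that encode proteins of the splicing machinery, listed by gene symbol as named subunits. They were taken out of the 34976 gene symbols of the expression table that could be used. Expression was measured in CF-1 mouse embryos at the late 2-cell stage, each injected with a morpholino early in the 1-cell stage. The control group had received a scrambled morpholino and the other group a morpholino directed at the start site of Med13, a subunit of the kinase module through which the Mediator complex regulates RNA polymerase II. Each group had 4 libraries from separate collections of 40 pooled embryos, so the p-values refer to the spread between collections. All embryos of both groups had been injected, and no uninjected group was analysed. A morpholino blocks translation or splicing of its target and can leave the mRNA in place, so knockdown cannot be read from the mRNA level.

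The spliceosome is assembled anew on each intron from small nuclear ribonucleoproteins (snRNPs), particles that combine a short uridine-rich RNA with proteins. The U1 snRNP recognises the 5' splice site, SF1 and the U2AF dimer mark the branch point and the 3' splice site, and the U2 snRNP then pairs with the branch point. The U4/U6.U5 tri-snRNP and the Prp19 complex join next and the catalytic core is built around U5 and U6. Sm proteins form the ring around most of the RNAs and LSm proteins the ring on U6. In the mouse 2-cell embryo, stored maternal mRNA is degraded while the embryo's own genome becomes active, so a level measured at this stage is a sum of inherited and newly made transcripts.

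Mediator acts at promoters, so the sequences upstream of the genes are shown first. RefSeq promoter windows (build GRCm38.p6, 250 bases before to 50 bases after the annotated start) were matched by symbol for 37 of the 46 genes. Sf3b4, Puf60, Snrpb, Sf3b5, U2af2, Eftud2, Snrnp40, Lsm4 and Snrpd1 had no entry. Below are the bases from 250 to 21 upstream of the start for Sf3b1 (chr1:55027499-55027728, minus strand) and Lsm2 (chr17:34981604-34981833, plus strand), the genes with an entry that were lower after the Med13 morpholino. Lsm5 (chr6:56704720-56704949, minus strand) was not called different and is shown as an example of the letters CCGGAAG. Capitals mark matches to the 6 letter strings listed after the sequences.
Sf3b1: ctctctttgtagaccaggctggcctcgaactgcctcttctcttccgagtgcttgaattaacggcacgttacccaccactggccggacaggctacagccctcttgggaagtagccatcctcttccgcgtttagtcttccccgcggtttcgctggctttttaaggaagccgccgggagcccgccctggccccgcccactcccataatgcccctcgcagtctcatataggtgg
Lsm2: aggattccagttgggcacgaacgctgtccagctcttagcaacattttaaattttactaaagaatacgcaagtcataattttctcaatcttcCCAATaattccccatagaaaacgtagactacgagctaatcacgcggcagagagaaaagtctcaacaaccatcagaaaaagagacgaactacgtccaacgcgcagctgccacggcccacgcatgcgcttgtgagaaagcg
Lsm5: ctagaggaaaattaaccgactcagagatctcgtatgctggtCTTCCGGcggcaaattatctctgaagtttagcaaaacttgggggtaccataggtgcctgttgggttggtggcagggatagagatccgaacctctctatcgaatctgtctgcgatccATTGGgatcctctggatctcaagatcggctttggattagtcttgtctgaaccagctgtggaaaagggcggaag
Exact letters were searched on both strands, and no string contains another. Where a symbol had more than 1 window, a match in any of them was counted. The ETS core was written CCGGAAG. The NF-Y box was written CCAAT, and the TATA box was searched as TATAAA. The longer NRF1, YY1 and ZBTB33 motifs were searched as a single exact string each. The stretch of Sf3b1 held no match. Lsm2 held CCAAT 159 bases upstream, and Lsm5 held CCGGAAG 209 bases upstream and CCAAT 93 bases upstream, both on the opposite strand. In the whole windows, CCGGAAG was found in 14 of 37 members (37.8%), against 9.93% of the 27025 symbols with a window. Those symbols were neither limited to genes expressed in these embryos nor matched for GC content, so the 2 shares are not a like comparison. The 14 were Lsm5, Prpf19, Prpf3, Prpf6, Sf3a1, Sf3a2, Sf3a3, Sf3b2, Sf3b3, Snrnp200, Snrpb2, Snrpc, Snrpe and Snrpg. CCAAT was found in 17 members (45.9%, against 41.1% of all windows) and TATAAA in 2, Sf3b3 and Snrpa (5.41%, against 15.7%). NRF1 letters were found in Snrnp70, YY1 letters in Sf3a1 and ZBTB33 letters in Cdc5l, 1 member each. The median GC content of the 250 upstream bases was 57.2% in the members and 52.0% over all genes. A match of letters is a description and not a binding site, and its part in the levels below was not tested.

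Sequencing depth, estimated from the steps of the low values, was between 31380000 and 48050000 fragments per library. Summed Med13 FPKM (fragments scaled by transcript length and library size) was 41.1, 38.5, 38.2 and 47.5 in scrambled replicates 1 to 4 and 43.9, 39.4, 41.7 and 43.8 in Med13 morpholino replicates 1 to 4. The means were 41.3 ± 4.31 and 42.2 ± 2.14 (SD, n = 4; exact permutation test, two-sided, p = 0.629, smallest possible 0.0286). Of 12 genes listed as markers of the late 2-cell embryo, among them Dppa3 and Zp3, 11 were found in the table. All 11 were at a mean of at least 1 FPKM. After the Med13 morpholino 6 of these 11 rose and 1 fell (median difference 0.70 on the log2(FPKM + 1) scale), which is 63.6% called against 17.1% of all genes tested. Their summed level was between 656 and 803 FPKM in the scrambled group and between 841 and 974 FPKM in the other, with most of it from Dppa3, at means of 557 and 536 FPKM. The higher sum thus came from other genes of the list, and it was not used to stage the embryos. The part of these marker differences in the spliceosome results was not tested. Cumulus markers (10 found) and sperm markers (4 found) were all below 1 FPKM. Of 9 blood markers 5 were found, and 2 of these reached 1 FPKM. The haemoglobin genes on that list could not be read, as rows with hyphenated symbols were left out. Of 7 genes listed as oviduct markers 3 reached 1 FPKM, Ovgp1, Cdh1 and Epcam, led by Epcam at a mean of 26.5 FPKM. Krt8, Krt18, Pax8 and Foxj1 were below 1 FPKM. Whether the RNA of these 3 came from oviduct cells or from the embryos was not tested. Of the 3 oviduct markers 1 fell. Scrambled replicate 2 stood apart from its group, its 10 highest genes taking 20.8% of its summed FPKM. The same share was 13.0% to 13.8% in scrambled replicates 1, 3 and 4, and 16.4% to 17.5% after the Med13 morpholino.

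Of the 46 spliceosome genes, 3 fell after the Med13 morpholino and none rose. They were Lsm2, which encodes a subunit of the U6 LSm ring, Sf3b1, the largest subunit of the U2 complex that clamps the branch point, and Eftud2, the GTPase of the U5 snRNP. All 46 passed the filter of a mean of at least 1 FPKM and were tested. The 3 calls are 6.52% of them, while limma with Benjamini-Hochberg adjustment called 17.1% of all 11755 genes tested at an adjusted p below 0.05, 7.81% lower and 9.29% higher. The same 3 genes were the members whose groups did not overlap, a pattern seen in 21.6% of all genes tested, 11.1% lower and 10.4% higher. At an unadjusted p below 0.05 there were 4 members, the fourth being Rbm17, all of them lower, against 32.4% of all genes tested (16.7% lower). Because RNA came from pooled embryos, less RNA per cell cannot be told apart from fewer embryos or cells that hold it.

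**Figure D1:**
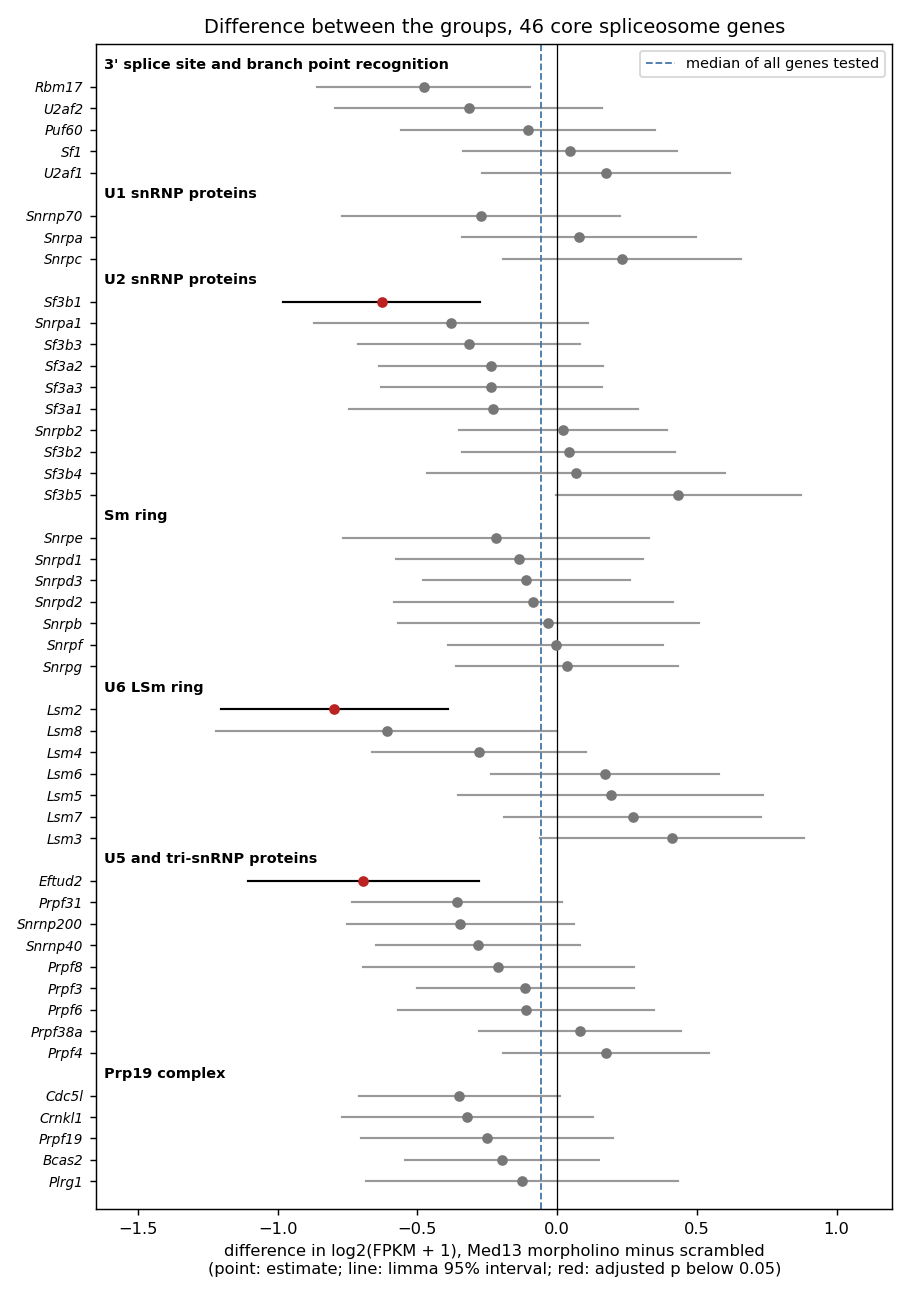
Difference in log2(FPKM + 1) between the Med13 morpholino and scrambled groups (x axis) for each of the 46 genes (y axis, grouped by role and ordered within a role). Points are limma estimates from 4 libraries per group, lines are 95% intervals, and red marks an adjusted p below 0.05. The dashed line is the median of all genes tested, -0.057. Only Lsm2, Sf3b1 and Eftud2 are red, while the interval of Rbm17 also lies below 0 without passing the adjusted threshold.

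The difference in log2(FPKM + 1) ran from -0.80 (Lsm2) to 0.43 (Sf3b5) over the members. Its median was -0.13, against -0.06 over all genes tested. It was below 0 in 31 members and above 0 in 15, so that 67.4% lay below 0 against 55.5% of all genes. With median-ratio scaling or quantile normalization 29 members lay below 0 in each case. This scale understates the change of genes with low FPKM.

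LSM2 is a subunit of the ring that binds the end of U6 RNA, and shared with the cytoplasmic LSm ring that takes part in mRNA decay. Summed Lsm2 FPKM (ENSMUSG00000007050, chr17:34981862-34985891, plus strand, GRCm38) was 34.2, 34.2, 43.8 and 45.1 in scrambled replicates 1 to 4. In Med13 morpholino replicates 1 to 4 it was 15.8, 22.5, 25.7 and 25.6. Every Med13 morpholino library lay below every scrambled one, and replicate 1 was the lowest. The means were 39.3 ± 5.93 and 22.4 ± 4.63 FPKM (SD, n = 4). The difference was -0.80 ± 0.19 (SE) on the log2(FPKM + 1) scale (limma, adjusted p = 0.0142). This is a ratio of FPKM + 1 of 0.575, with a 95% interval of 0.434 to 0.762. The call of Lsm2 held when any 1 library was left out, with adjusted p between 0.0121 and 0.0461. It was lost only when no filter on low values was applied (adjusted p = 0.0523).

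SF3B1 holds the branch point adenosine together with its partners and is the best known target of splicing modulator drugs. Sf3b1 (ENSMUSG00000025982, chr1:54985169-55027481, minus strand) was at 51.0, 56.4, 56.6 and 56.9 FPKM in scrambled replicates 1 to 4. After the Med13 morpholino it was at 31.9, 29.3, 38.0 and 43.9 FPKM. The groups did not overlap, and the scrambled libraries lay close together while the Med13 morpholino libraries were spread. The means were 55.2 ± 2.80 and 35.8 ± 6.56 FPKM (SD, n = 4). The difference was -0.63 ± 0.16 (SE), a ratio of FPKM + 1 of 0.647 with a 95% interval of 0.507 to 0.826 (limma, adjusted p = 0.0213). The adjusted p was 0.0622 without scrambled replicate 3, 0.0527 without scrambled replicate 4, 0.0847 without Med13 morpholino replicate 2 and 0.0573 with no filter on low values.

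EFTUD2 is related to translation elongation factor 2 and acts with PRPF8 and the helicase SNRNP200 when the spliceosome is activated and taken apart. Eftud2 (ENSMUSG00000020929, chr11:102838473-102880985, minus strand) was at 7.51, 7.49, 10.20 and 12.5 FPKM in scrambled replicates 1 to 4. After the Med13 morpholino it was at 4.21, 5.03, 5.63 and 6.66 FPKM. The groups did not overlap, although the highest Med13 morpholino library and the lowest scrambled ones were close. The means were 9.43 ± 2.42 and 5.38 ± 1.03 FPKM (SD, n = 4). The difference was -0.69 ± 0.19 (SE), a ratio of FPKM + 1 of 0.618 with a 95% interval of 0.464 to 0.824 (limma, adjusted p = 0.0275). This was the least firm of the 3 calls. It was lost without scrambled replicate 3 (adjusted p = 0.0745), scrambled replicate 4 (0.0741), or Med13 morpholino replicate 1 (0.0750), 2 (0.0805) or 3 (0.0586). It was also lost with protein-coding transcripts only (0.0638), with the most abundant transcript only (0.134) and with no filter (0.0860). Its FPKM is a sum over 13 annotated transcripts. The most abundant by FPKM, Eftud2-211, is only 397 bases long and rested on 12 to 37 fragments per library. The coding transcripts Eftud2-201 and Eftud2-202, of 3324 and 3339 bases, had a lower mean FPKM but more fragments. Of the exonic bases of Eftud2, 26.9% are shared with the antisense gene Gm26668.

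**Figure D2:**
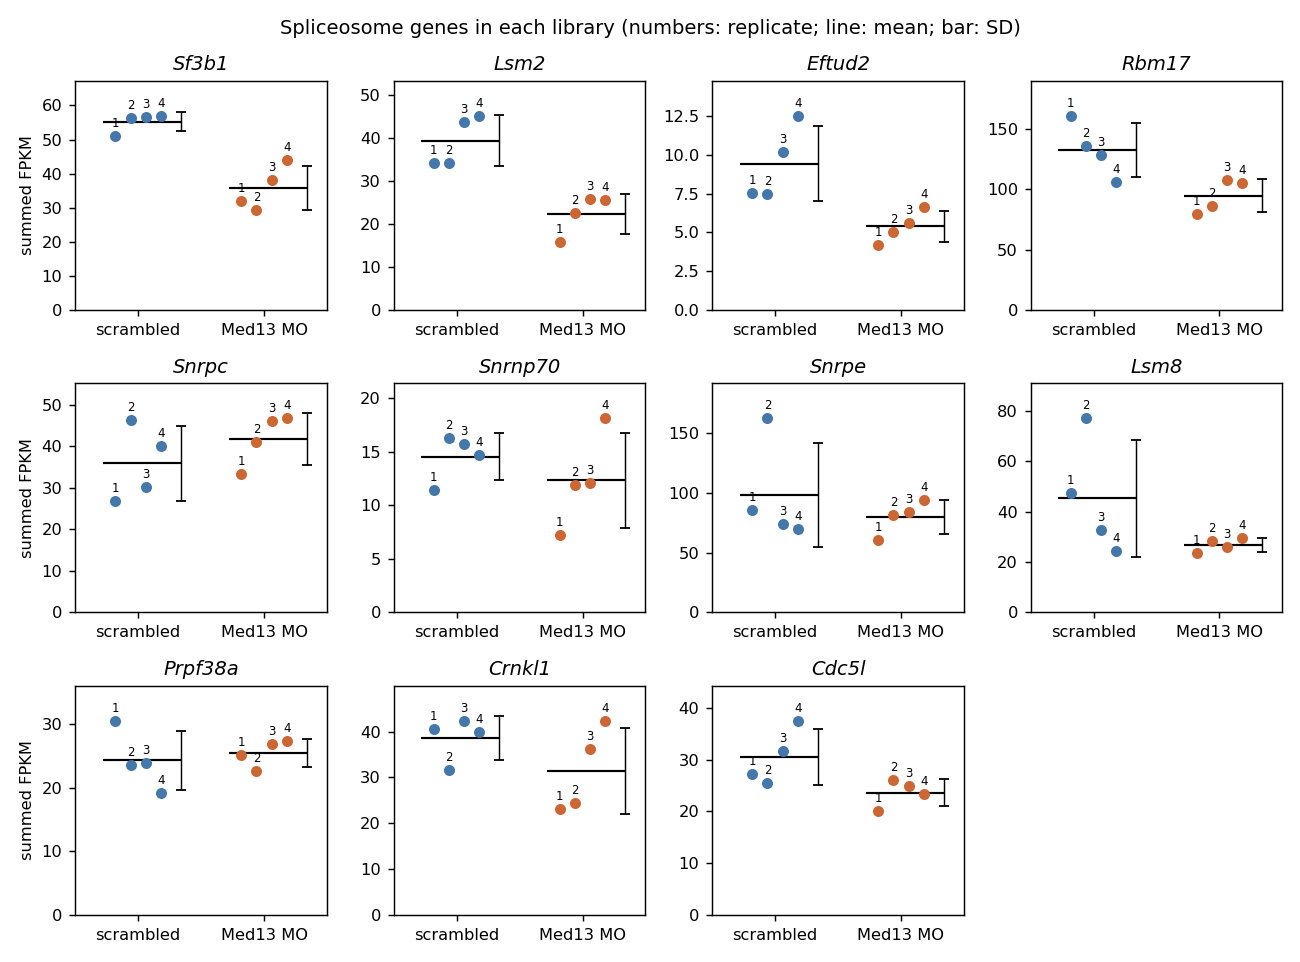
Summed FPKM (y axis, linear and from 0) of 11 spliceosome genes in the 4 scrambled (blue) and 4 Med13 morpholino (orange) libraries. Each point is 1 library with its replicate number, horizontal lines are group means and bars are SD. Sf3b1, Lsm2 and Eftud2 show no overlap between the groups, whereas the other 8 panels overlap, and scrambled replicate 2 stands far above its group for Snrpe (162.2 FPKM) and Lsm8 (77.0 FPKM).

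Among the 5 proteins that recognise the 3' splice site and branch point, none passed the test. Rbm17 (SPF45) is an alternative splicing factor that binds U2-associated proteins. It had the highest summed FPKM of all 46 genes, at a mean of 113.8 over the 8 libraries. That sum includes retained-intron transcripts, and the most abundant single transcript made up 31.5% of it. Summed Rbm17 was at 161.0, 135.7, 128.2 and 106.4 FPKM in scrambled and at 79.8, 86.5, 107.9 and 105.2 FPKM in Med13 morpholino libraries. Only scrambled replicate 4 and Med13 morpholino replicate 3 were out of order. The means were 132.8 ± 22.5 and 94.9 ± 13.8 FPKM (SD, n = 4), with a difference of -0.48 ± 0.18 (SE; limma, adjusted p = 0.0810). Of 17 alternatives only 1 called Rbm17, the one that weighted libraries by the spread of these same values (limma, adjusted p = 0.0360). That setting called 36.9% of all genes tested. For the U2AF dimer the difference was 0.17 for the small subunit U2af1, which contacts the AG at the 3' splice site, and -0.32 for the large subunit U2af2, which binds the polypyrimidine tract. It was 0.05 for the branch point protein Sf1 and -0.10 for Puf60, a relative of U2AF2.

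The 3 proteins specific to U1 were also not called. Snrpc, which stabilises the pairing of U1 with the 5' splice site, was at 35.9 ± 8.96 FPKM in scrambled and 41.7 ± 6.15 FPKM in Med13 morpholino libraries (difference 0.23). Snrnp70, the U1-70K protein, was at 14.5 ± 2.18 and 12.3 ± 4.45 FPKM (SD, n = 4; difference -0.27). In Snrnp70 the Med13 morpholino group spanned the whole scrambled range, from 7.24 FPKM in replicate 1 to 18.1 FPKM in replicate 4. Snrpa, which binds a stem-loop of U1 RNA, had a difference of 0.08.

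Sf3b1 was the only called gene of the 10 U2 proteins, and it was also the most abundant of them, at a mean of 45.5 FPKM. The U2 proteins covered a 35.9-fold range of level, down to 1.27 FPKM for Sf3a2. The other subunits of the same SF3B complex did not share one direction: the difference was -0.32 for Sf3b3, 0.04 for Sf3b2, 0.07 for Sf3b4 and 0.43 for Sf3b5. The SF3A heterotrimer had similar values, -0.23 for Sf3a1, -0.24 for Sf3a2 and -0.24 for Sf3a3. The U2-specific proteins Snrpa1 and Snrpb2 were at -0.38 and 0.02. Outside the 46 genes, the SF3B subunits Sf3b6 and Phf5a had differences of 0.41 (limma, adjusted p = 0.0878) and 0.06. None of these 11 passed the test. Sf3b5, the smallest subunit, was at 5.09 ± 0.628 FPKM against 7.43 ± 2.26 FPKM (SD, n = 4; limma, adjusted p = 0.159). As single libraries were left out, its adjusted p ran from 0.0357, without Med13 morpholino replicate 1, to 0.314.

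The Sm ring held the widest range of level of any role, from 89.0 FPKM for Snrpe to 1.40 FPKM for Snrpd3, although the 7 proteins stand in equal number in the assembled ring. Its differences were the smallest of any role, from -0.22 (Snrpe) to 0.03 (Snrpg), and none passed the test. The difference was below 0 in 6 of 7 members, and in 4 of 7 with either other scaling. Snrpe was at 86.0, 162.2, 74.3 and 69.3 FPKM in scrambled and 60.7, 81.1, 84.1 and 94.2 FPKM in Med13 morpholino libraries. Its direction was set by scrambled replicate 2, without which the difference was 0.05. The remaining members were Snrpd1 (-0.14), Snrpd3 (-0.11), Snrpd2 (-0.09), Snrpb (-0.03) and Snrpf (-0.01). Snrpg had 4 near-identical copies in the genome, of which Gm8186 was listed at a mean of 53.3 FPKM, and Snrpf shares 85.4% of its exonic bases with genes on the other strand. Their values may therefore hold fragments of those genes.

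In the U6 LSm ring, Lsm2 was the only called member of 7, and the median difference of the ring was 0.17. Lsm8, the subunit that distinguishes the nuclear U6 ring from the cytoplasmic one, was the most abundant at a mean of 36.1 FPKM. Its scrambled values were 47.3, 77.0, 32.8 and 24.2 FPKM and its Med13 morpholino values 23.5, 28.5, 25.9 and 29.5 FPKM. The scrambled libraries were widely spread and the lowest lay among the Med13 morpholino ones, so the difference of -0.61 was not called (limma, adjusted p = 0.155). As single libraries were left out, its adjusted p ran from 0.0450, without scrambled replicate 4, to 0.306. Lsm4 had a difference of -0.28. The other 4 ring members had differences above 0 that did not pass the test, 0.17 for Lsm6, 0.19 for Lsm5, 0.27 for Lsm7 and 0.41 for Lsm3.

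Eftud2 was the only called gene of the 9 U5 and tri-snRNP proteins. Prpf8, the large scaffold that surrounds the active site, had a difference of -0.21. The helicase Snrnp200, which unwinds U4 from U6, had a difference of -0.35 (limma, adjusted p = 0.221). As single libraries were left out, its adjusted p ran from 0.0300, without scrambled replicate 2, to 0.455. The U5 protein Snrnp40 was at -0.28, Prpf6, which bridges U5 to U4/U6, at -0.11, and the U4/U6 proteins Prpf31, Prpf3 and Prpf4 at -0.36, -0.11 and 0.17. Prpf38a, needed for activation after the tri-snRNP has joined, was the most abundant of the role, at 24.3 ± 4.68 FPKM in scrambled and 25.5 ± 2.17 FPKM in Med13 morpholino libraries (SD, n = 4; difference 0.08, 95% interval -0.28 to 0.44). None of these 8 passed the test.

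The Prp19 complex stabilises U5 and U6 on the pre-mRNA during activation. Its 5 members all had differences below 0, also with either other scaling, and none passed the test. Of all genes tested, 55.5% lay below 0. Over all alternatives at least 4 of the 5 stayed below 0, and Plrg1 turned in 2 of them. Cdc5l, a core subunit, was at 27.3, 25.5, 31.7 and 37.5 FPKM in scrambled and 20.1, 26.1, 24.8 and 23.3 FPKM in Med13 morpholino libraries. The groups touched only at scrambled replicate 2 and Med13 morpholino replicate 2, and the difference was -0.35 (limma, adjusted p = 0.166). Cdc5l also had 10 near-identical copies, 6 of them listed at a mean of at least 1 FPKM. Crnkl1, the most abundant member, was at 38.5 ± 4.81 and 31.5 ± 9.34 FPKM (SD, n = 4; difference -0.32). The ubiquitin ligase Prpf19 was at -0.25, Bcas2 at -0.20 and Plrg1 at -0.13.

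The levels of the members differed between the Med13 morpholino libraries, in an order shared by the other splicing genes. Replicate 1 was the lowest of its group in 38 of 46 genes (82.6%, against 41.9% of all genes tested), and replicate 4 the highest in 37 (80.4%, against 44.4%). Replicate 4 exceeded replicate 1 in 45 of 46 members, the exception being Bcas2, by a median of 0.60 on the log2 scale. Over all genes tested, replicate 4 exceeded replicate 1 in 62.9%, by a median of 0.15. The largest such gap among the members was 1.40. The plot by library shows the same contrast in every role.

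**Figure D3:**
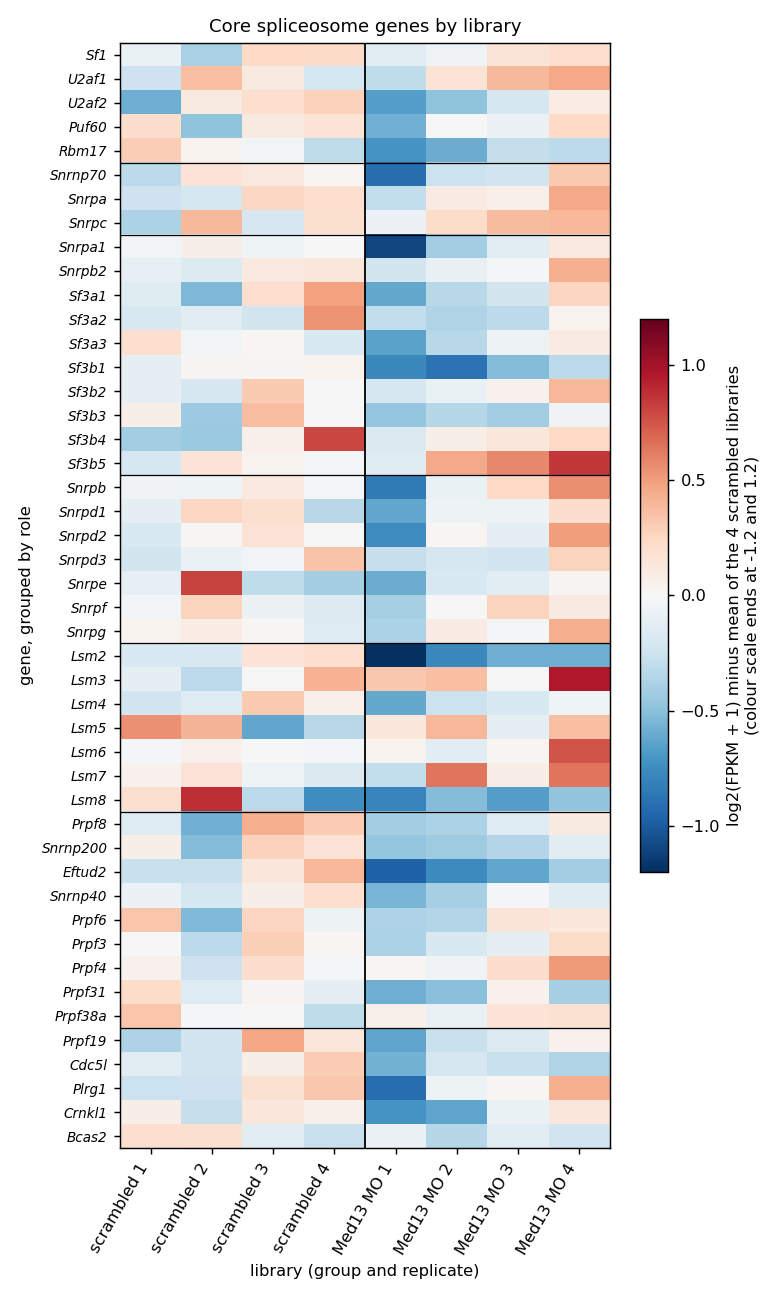
Each of the 46 genes (y axis, grouped by role) in each of the 8 libraries (x axis), as log2(FPKM + 1) minus the mean of the 4 scrambled libraries (colour, scale ending at -1.2 and 1.2). The Med13 morpholino 1 column is mostly blue and the Med13 morpholino 4 column mostly red, with member medians of -0.46 and 0.19, and Lsm2, Sf3b1 and Eftud2 are blue in all 4 Med13 morpholino columns.

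Relative to the mean of the scrambled group, the members' median was -0.46, -0.19, -0.08 and 0.19 in Med13 morpholino replicates 1 to 4 and between -0.14 and 0.11 in the scrambled libraries. The 118 splicing genes outside the list had the same order, with medians of -0.37, -0.14, 0.03 and 0.17. The corresponding medians of all genes tested were -0.16, -0.08, -0.03 and 0.05. The Sm ring ran from -0.59 in Med13 morpholino replicate 1 to 0.27 in replicate 4, and the Prp19 complex from -0.63 to 0.05. The number of members above the scrambled mean was 5 in replicate 1 and 34 in replicate 4. The median coefficient of variation of the members was 22.5% in the Med13 morpholino group and 19.1% in the scrambled group, against 19.4% and 21.6% over all genes tested. Among these libraries the shares taken by the 10 highest genes were alike, and the part of RNA quality or embryo stage in the spread was not tested. Leaving out Med13 morpholino replicate 1 moved the members' median difference from -0.13 to -0.04, and leaving out replicate 4 moved it to -0.27. The median of all genes tested moved with it, from -0.06 to -0.01 and -0.09. An alternative chosen after the data were seen left out scrambled replicate 2 and Med13 morpholino replicate 1 together. The same number of members was called lower (3) and 1 was called higher, 8.7% against 15.6% of all genes tested. The members' median difference was then -0.09, against -0.07 over all genes tested.

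Single annotated transcripts were tested as well. The members had 190 transcript rows, of which 120 reached a mean of 1 FPKM. Of these, 8 (6.67%) fell and none rose by limma with adjustment over all transcripts tested, against 15.7% called among all 21052 transcripts, 7.57% lower and 8.17% higher. The 8 belonged to Lsm2, Sf3b1 and Crnkl1. No source used here says how fragments were divided among isoforms.

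In Lsm2 the coding transcripts Lsm2-202 and Lsm2-201, the retained-intron transcript Lsm2-203 and the noncoding transcript Lsm2-209 fell. The most abundant of the 11, Lsm2-202, was at 8.70, 8.02, 10.8 and 11.1 FPKM in scrambled and 2.84, 3.93, 3.62 and 4.72 FPKM in Med13 morpholino libraries. The groups lay well apart, with means of 9.64 ± 1.51 and 3.78 ± 0.780 FPKM (SD, n = 4) and a difference of -1.16 ± 0.17 (SE; limma, adjusted p = 0.000948). That transcript, Lsm2-209 (difference -1.003, adjusted p = 0.00142) and Lsm2-203 (difference -0.565, adjusted p = 0.0111) held in each of the 8 fits without a single library. For Lsm2-203 the highest adjusted p of these fits was 0.0496, close to the threshold. The estimate for Lsm2-202 was further from 0 than the -0.80 of the summed gene. The call of Lsm2-201 was lost without scrambled replicate 3 or without Med13 morpholino replicate 1 or 2 (adjusted p at most 0.0603).

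In Sf3b1 the full-length coding transcript Sf3b1-201 was at 20.7, 21.0, 21.9 and 22.9 FPKM in scrambled and 13.2, 11.9, 16.3 and 17.8 FPKM in Med13 morpholino libraries. The groups did not overlap, and the difference was -0.53 ± 0.17 (SE; limma, adjusted p = 0.0489). This call was close to the threshold: of the 8 fits without a single library it held in 2, those without scrambled replicate 2 or Med13 morpholino replicate 4, and without Med13 morpholino replicate 2 its adjusted p was 0.173. The retained-intron transcript Sf3b1-207 was at 15.8 ± 3.75 and 8.65 ± 1.94 FPKM (SD, n = 4; difference -0.80 ± 0.20 (SE); limma, adjusted p = 0.0182, 0.0718 without Med13 morpholino replicate 2). The short noncoding Sf3b1-206 fell as well (difference -0.49, adjusted p = 0.0273), a call lost without scrambled replicate 1 or 3 or without Med13 morpholino replicate 1, 2 or 3 (adjusted p at most 0.0902). Crnkl1-203, a retained-intron transcript at 3.57 ± 0.639 and 2.08 ± 0.442 FPKM, fell (difference -0.57, adjusted p = 0.0286) although its gene did not pass the test, and its coding transcript Crnkl1-201 was at 32.2 ± 4.14 and 27.3 ± 8.15 FPKM (SD, n = 4; adjusted p = 0.421). The call of Crnkl1-203 was lost without scrambled replicate 3 or 4 or without Med13 morpholino replicate 1 or 2 (adjusted p at most 0.0989). No transcript of Eftud2 passed. Of its 13, 11 lay under the filter, and the 2 that were tested, Eftud2-211 (means of 1.97 and 1.22 FPKM) and Eftud2-202, had adjusted p = 0.132 and 0.190.

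**Figure D4:**
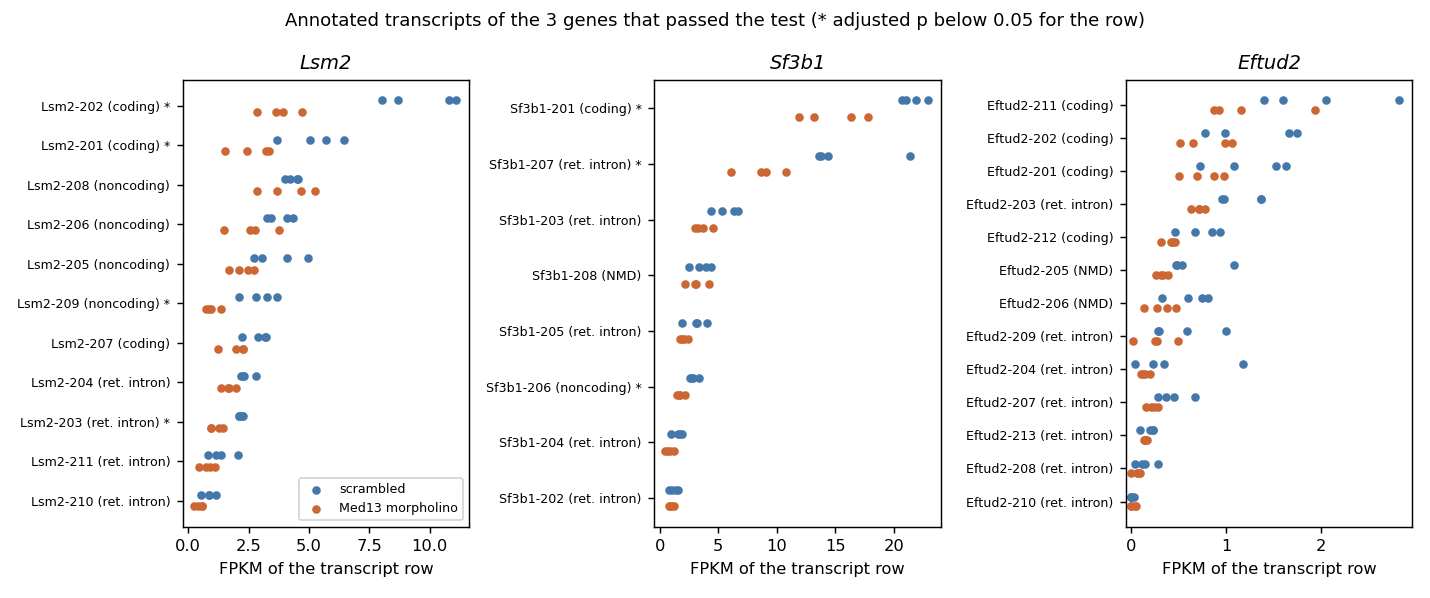
FPKM (x axis, linear, a separate scale per panel) of each annotated transcript (y axis, with its type) of Lsm2, Sf3b1 and Eftud2, with 1 point per library, scrambled in blue and Med13 morpholino in orange. A star marks an adjusted p below 0.05. Lsm2-202 and Sf3b1-201 lie apart between the groups (9.64 against 3.78 and 21.6 against 14.8 FPKM on average), and every Eftud2 transcript is low.

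Transcripts annotated as retaining an intron made up between 16.6% and 18.9% of the members' summed FPKM in the scrambled group. In the Med13 morpholino group the share was between 13.5% and 16.4%. For all other genes the ranges were 7.29% to 8.53% and 7.38% to 7.49%. The largest contributors among the members were Rbm17-202, at 36.5 ± 9.67 and 23.3 ± 3.56 FPKM (SD, n = 4; limma, adjusted p = 0.0731), and Rbm17-204, at 31.7 ± 6.61 and 21.3 ± 2.67 FPKM (adjusted p = 0.0710), neither of which passed. Next came Sf3b1-207, which fell from 15.8 ± 3.75 to 8.65 ± 1.94 FPKM (SD, n = 4; limma, adjusted p = 0.0182). The members' shares therefore rest in large part on Rbm17 and Sf3b1 and do not describe the set as a whole. All these shares are sums of FPKM over annotated models and do not measure splicing of introns directly. Transcripts annotated as targets of nonsense-mediated decay made up 5.08% to 6.76% and 5.40% to 5.73%, ranges that overlapped.

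Of 118 tested splicing genes outside the core list, 18 (15.3%) were called, 13 lower and 5 higher, close to the 17.1% of all genes tested. With median-ratio scaling the split was 13 lower and 11 higher, and with quantile normalization 14 lower and 9 higher. Among 39 other U1, U2 and tri-snRNP genes, 6 fell and 1 rose (17.9%), a share near that background. U2surp, a U2-associated protein that binds RBM17, fell from 16.1 ± 1.66 to 8.65 ± 0.451 FPKM (SD, n = 4; difference -0.82, limma, adjusted p = 0.00318). Dhx15, the helicase that takes the spliceosome apart, fell from 32.2 ± 5.20 to 17.8 ± 3.78 FPKM (difference -0.83, adjusted p = 0.0107), and Smndc1 (SPF30), which joins the tri-snRNP to the early complex, rose from 19.2 ± 1.77 to 34.03 ± 4.26 FPKM (difference 0.79, adjusted p = 0.00558). These 3 calls held in all 17 alternatives.

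Of 18 tested genes listed for snRNP assembly, 3 fell and 1 rose, 22.2% against 17.1% of all genes tested. The list is wider than the Sm ring step and includes Ncbp1, Phax, Tgs1, Snupn, Larp7 and Mepce. Prmt5, the methyltransferase that modifies Sm proteins, fell from 20.3 ± 1.53 to 10.3 ± 2.72 FPKM (SD, n = 4; difference -0.95, limma, adjusted p = 0.00491). Gemin5, the subunit of the SMN complex that recognises the RNAs, fell from 26.7 ± 5.999 to 11.9 ± 3.0 FPKM (difference -1.11, adjusted p = 0.00550), while Gemin8 of the same complex rose from 1.81 ± 0.480 to 3.94 ± 0.630 FPKM (difference 0.82, adjusted p = 0.00634). None of the 7 Sm ring genes themselves had passed the test. The Prmt5 call was lost when protein-coding transcripts only or the most abundant transcript only was used (adjusted p = 0.0613 and 0.0943).

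Among 34 Prp19-related, catalytic and second-step genes, 3 fell and 3 rose (17.6%), a share near the 17.1% of all genes tested. Gpkow, a G-patch protein of the activated spliceosome, fell from 17.5 ± 2.96 to 7.55 ± 0.985 FPKM (SD, n = 4; difference -1.11, limma, adjusted p = 0.00138). Ppig, a nuclear cyclophilin, fell (difference -0.73, adjusted p = 0.0174) and the helicase Aqr rose (difference 0.68, adjusted p = 0.0164) when transcripts were summed. The most abundant transcript of Ppig alone was higher, by 0.80, and the coding transcripts of Aqr alone gave -0.13. The Aqr call was lost without scrambled replicate 3 (adjusted p = 0.0542) or Med13 morpholino replicate 2 (0.0674) or 3 (0.0516), and the Ppig call without scrambled replicate 3 (0.0557) or Med13 morpholino replicate 2 (0.0530). Of 11 exon junction complex genes, 1 (9.09%) fell, Magohb, a close paralog of Magoh with which fragments could be shared, from 4.38 ± 0.776 to 1.75 ± 0.994 FPKM (difference -1.02, adjusted p = 0.00933). None of 12 minor spliceosome genes and none of 5 Lsm genes outside the U6 ring passed the test.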

How the data were processed

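Total RNA from 8 pools of embryos was amplified and sequenced, per the labels' protocols. The authors deposited FPKM per Ensembl transcript. BWA and mm10 come from the submitters' processing notes. No source used here gives the BWA version, counting tool, annotation or strand setting. Of 97496 rows, 3758, whose symbols hold a hyphen, have values moved by 1 column and were left out, and 93738 rows (34976 symbols) were used. The column of scrambled replicate 1 has text in those rows and was otherwise read as FPKM. Columns left unmatched to a sample numbered 0.

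Replicates 1 to 4 are numbered in accession order, and the labels name no pairs. Rows were summed per symbol, which may count a fragment shared by isoforms more than once. Genes with a mean of at least 1 FPKM were tested on the log2(FPKM + 1) scale by limma (version 3.58.1, R 4.3.3, mean-variance trend, two-sided, Benjamini-Hochberg adjusted p below 0.05 over all genes, no covariate), and transcripts were fitted separately in the same way. Fragment totals assume that low FPKM values are multiples of 0.5 fragments, as 94.3% to 94.5% of values up to 20 fragments were within 0.005 fragments. Amplified fragments carry no molecular identifiers, so these depths bound counting error only. The script was tested on simulated data, where it had to recover large changes. Power for differences of the size described here was not judged from that test. Coordinates, transcript types and lengths come from GENCODE M21 (GRCm38), which matched 98.7% of rows and all 190 member rows. Near-identical copies were sought at 95% identity over 50% of the coding sequence. Of the members 14 had such a copy, in 7 of them at a mean of at least 1 FPKM, and 2, Snrpf and Eftud2, shared over 20% of exonic bases with another gene.

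The members, role lists and other lists were chosen with earlier results of these data known. Full values were given for called members and for the most abundant and the lowest adjusted p member of each role, and up to 3 called genes with the lowest adjusted p of each other splicing list. Sf3b5, Sf3b6, Phf5a, Snrnp200 and the transcripts were named after their values were seen. Alternatives were pseudocount 0.1, other filters, median-ratio and quantile scaling, coding or most abundant transcripts only, library weights, and leaving out libraries.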

Additional observations from a re-analysis of the deposited data

Results flagged for a closer look

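In 6 of 92 groups of 4 values, 1 library lay far from the other 3, its gap to the nearest of them taking up most of the group's range. Chance alone gives this in about 1 in 20 groups, or 4.6 of 92. Sf3a2 was at 2.505 FPKM in scrambled replicate 4 (the others at 1.075 to 1.215) and at 1.484 FPKM in Med13 morpholino replicate 4 (0.8734 to 0.9608). Snrpd3 was at 1.955 FPKM in Med13 morpholino replicate 4 (1.026 to 1.145) and Lsm6 at 7.53 FPKM in the same library (3.635 to 4.228). Snrpb was at 14.49 FPKM in scrambled replicate 3 (12.75 to 13.02). Sf3b1 was at 51.04 FPKM in scrambled replicate 1 (56.36 to 56.93), still above the highest Med13 morpholino value.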

How the results depend on the processing

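The median difference of the members stayed below 0 in all 17 alternatives, as did that of all genes tested, and 28 of 46 members kept their sign in all of them. In all 17, 35 members were never called. With no filter on low values 1012 genes, 0 members, 6 lower and 3 higher other splicing genes and 3 member transcripts were called. With a filter of 5 FPKM 1137 genes and 3 higher other splicing genes were called. Weighting libraries gave 4336 genes, 36.9% of those tested. With these weights 9 members were called lower and 1 higher, 21.7% of the members. The weights also gave 34 lower and 10 higher other splicing genes (37.3%) and 34 member transcripts. Median-ratio scaling gave 11 and quantile normalization 9 higher other splicing genes. Without scrambled replicate 2 and Med13 morpholino replicate 1, chosen after the data were seen, 1 member was called higher and the groups of 11 did not overlap, in a fit where those of 36.4% of all genes did not. Leaving out 1 library at a time gave 975 to 2406 genes, 1 to 4 members lower, 0 to 1 higher, 3 to 6 members whose groups did not overlap (23.5% to 31.1% of all genes), 8 to 17 lower and 2 to 6 higher other splicing genes, and 3 to 12 member transcripts. Only 1 member, Lsm2, was called lower without scrambled replicate 3 or without Med13 morpholino replicate 2. Snrpe turned to 0.04 with library weights, to 0.18 without those 2 libraries, and ran from -0.35 to 0.05 as single libraries were left out. Prpf38a ran from -0.021 to 0.19, turning without scrambled replicate 4. Aqr turned to -0.13 with coding transcripts only and Ppig to 0.80 with the most abundant transcript only. The causes were not tested. No paired analysis was possible because the labels give the groups no shared replicate numbers and name no pairs. Depth limits short single transcripts most: the leading Eftud2 transcript by FPKM, 397 bases long, held 12 to 37 fragments per library, fewer than the longer coding ones.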
